A study of Homo sapiens with 21 samples.

Results

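Oxy186 and Oxy210 are oxysterol derivatives, and the comparison described here sets the xenograft tumors treated with one directly against those treated with the other at the same dose. The 7 tumors from Oxy186-treated mice and the 7 from Oxy210-treated mice were taken by their sample labels, 14 of the 21 tumors sequenced, and the 7 vehicle-treated control tumors serve only as a background level. All tumors were grown from A549-Luc2 cells, a human lung adenocarcinoma line carrying a luciferase gene, injected with Matrigel under the skin of the hind flank of female athymic nu/nu mice aged 6 to 8 weeks, which lack T cells. Treatment began when tumors averaged 80 to 100 cubic millimeters. Mice were randomized to groups of 10, of which 7 tumors each were sequenced, and gavaged daily, with Oxy186 at 50 mg/kg, with Oxy210 at 50 mg/kg, or with the vehicle of DMSO, ethanol, polyethylene glycol and corn oil alone. The model rests on 1 cell line, and each library is the bulk RNA of 1 tumor, so fewer cells of a type cannot be told apart from less RNA per cell.

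Oxysterols are oxidized forms of cholesterol. In cells, natural oxysterols restrain the sterol-sensing machinery that switches on cholesterol synthesis, activate the liver X receptors (LXR) that drive cholesterol export, and bind components of the Hedgehog (HH) pathway, in which SMO transmits a signal to the GLI transcription factors. WNT signaling, which works through β-catenin, supports growth of many carcinomas, and transforming growth factor β (TGF-β) promotes the epithelial-mesenchymal transition (EMT), in which epithelial cells take on a motile form. The study tested both compounds for action on HH and WNT signaling, and measured TGF-β target genes in tumors treated with Oxy210. The comparison asks whether Oxy186 and Oxy210 left different transcript levels in the same kind of tumor.

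Levels were taken as log2 CPM, the logarithm of CPM, read counts on human genes scaled to the library's total, and differences as log2 fold changes, Oxy186 minus Oxy210, so that a value of 1 means a doubling. The 14 libraries held between 13787493 and 15776682 counts on human genes, and these depths overlapped between the groups. All 15 markers of A549 cells, epithelial genes and targets of the constitutively active factor NRF2, had a median above 10 CPM, while CDKN2A and CDKN2B, which are deleted in this line, had 0 counts in all 14 libraries, which allows up to 0.218 CPM in the shallowest. MTAP, which lies beside them and is listed with them as deleted, was above 0 in every library, with at most 15 counts and a median of 0.207 CPM. Reads on mouse genes were set aside by the authors, so the stroma of the mouse host was not measured. Counts on human markers of other cells do not measure it either, and their source was not tested. Of those 20 markers, 14 had a median under 1 CPM and 2, the matrix genes COL1A1 and LUM, one above 10 CPM, and ADIPOQ was at 0 in all 14 libraries. Their summed level ran from 108 to 269 CPM in the Oxy186-treated samples and from 84.4 to 164 CPM in the Oxy210-treated ones, and their part in the results below was not tested.

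For most genes, the fitted average difference between tumors of the 2 compounds was less than 2-fold. The Oxy186 average covers tumors that differed widely among themselves, as given below. None of the 16361 genes tested differed between Oxy186-treated and Oxy210-treated samples by more than 2-fold at an adjusted p at or under 0.05, that is 0% called (quasi-likelihood fit of edgeR, p adjusted by Benjamini-Hochberg), and the smallest adjusted p was 0.126. With GC offsets and under 5 other settings 1 gene, RPL6P27, was called (adjusted p from 0.0132 to 0.0405). Limma voom called 0 genes, and so did DESeq2, which gave RPL6P27 no adjusted p, although DESeq2 put the adjusted p of 14 genes, 0.0856% of those tested, at or below 0.05 with smaller fold changes. Without adjustment, 664 genes (4.06% of all tested) had p under 0.05, of which 514 were higher with Oxy186 and 150 lower. That split depended on the fit, with 424 higher and 271 lower in limma voom and 655 higher and 564 lower once each library's trend with GC content was removed.

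A missed threshold does not show that the compounds act alike, so the 95% interval of each difference was taken. It lay wholly within a 2-fold change in either direction for 14201 genes, or 86.8%. For the 6051 better expressed genes, at a mean log2 CPM of 5 or more, the share was 98.4%, and the median half-width of the interval was 0.31, against 0.41 over all genes. For the remaining 2160 genes the interval reached past a 2-fold difference. The fitted change itself was past 2-fold for 45 genes, 23 higher and 22 lower with Oxy186.

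The genes closest to a difference were ribosomal. Of the 8 with the smallest p among genes higher with Oxy186, 3 encode ribosomal proteins and the other 5 are pseudogenes, copies of spliced messages inserted elsewhere in the genome that make no ribosomal protein of their own. The leading one, RPL6P27, is a transcribed pseudogene on chromosome 18 of GRCh38, from 6462144 to 6463030 on the minus strand. Its log2 CPM was 4.43 at the lowest, 4.63 at the median and 5.56 at the highest in Oxy186-treated samples, and 3.43, 3.52 and 3.99 in Oxy210-treated samples. Every Oxy186-treated tumor was above every Oxy210-treated one. The log2 fold change was 1.20 (standard error 0.19, 95% interval 0.80 to 1.602, adjusted p = 0.126 in edgeR). The 7 control tumors averaged 4.204, between the groups. Groups did not overlap for 12 genes in all, 0.0733% of those tested, of which 7 were higher with Oxy186.

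RPL6P27 cannot be read apart from RPL6, the gene of a protein of the large ribosomal subunit from which it was copied. Aligned to the nearest protein-coding transcript of GENCODE 44, its 867 bases differed at 6 positions, an identity of 99.3%, with an identical run of 276 bases. The counts are of reads mapped uniquely to the genome. The stretch with the most differences inside the RPL6 coding sequence is shown because reads that cover such bases can tell the loci apart. Capitals mark the 2 differing bases among 60.
RPL6P27: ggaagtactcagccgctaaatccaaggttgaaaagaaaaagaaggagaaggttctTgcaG
RPL6: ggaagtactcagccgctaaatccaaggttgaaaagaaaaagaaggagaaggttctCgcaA
RPL6 itself had a log2 fold change of 0.37 (95% interval -0.02 to 0.75). How many of the reads counted on the pseudogene came from RPL6 was not tested.

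The other 4 pseudogenes showed the same near identity. RPS28P7 and AC116533.1 (RPL36AP37 in GENCODE 44) matched RPS28 and RPL36A over their full length with an identity of 100%. BX679664.3 (RPL17P7) matched RPL17 at 99.3% and AC034236.1 matched RPS25 at 97.9%. RPS28P7 had a log2 fold change of 0.81 and RPS28 one of 0.75. The remaining pairs were less alike: AC116533.1 had 0.87 beside 0.17 for RPL36A, AC034236.1 had 1.04 beside 0.06 for RPS25, and BX679664.3 had 0.92 beside -0.35 for RPL17. Counts on each of these loci are uncertain for this reason.

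**Figure D1:**
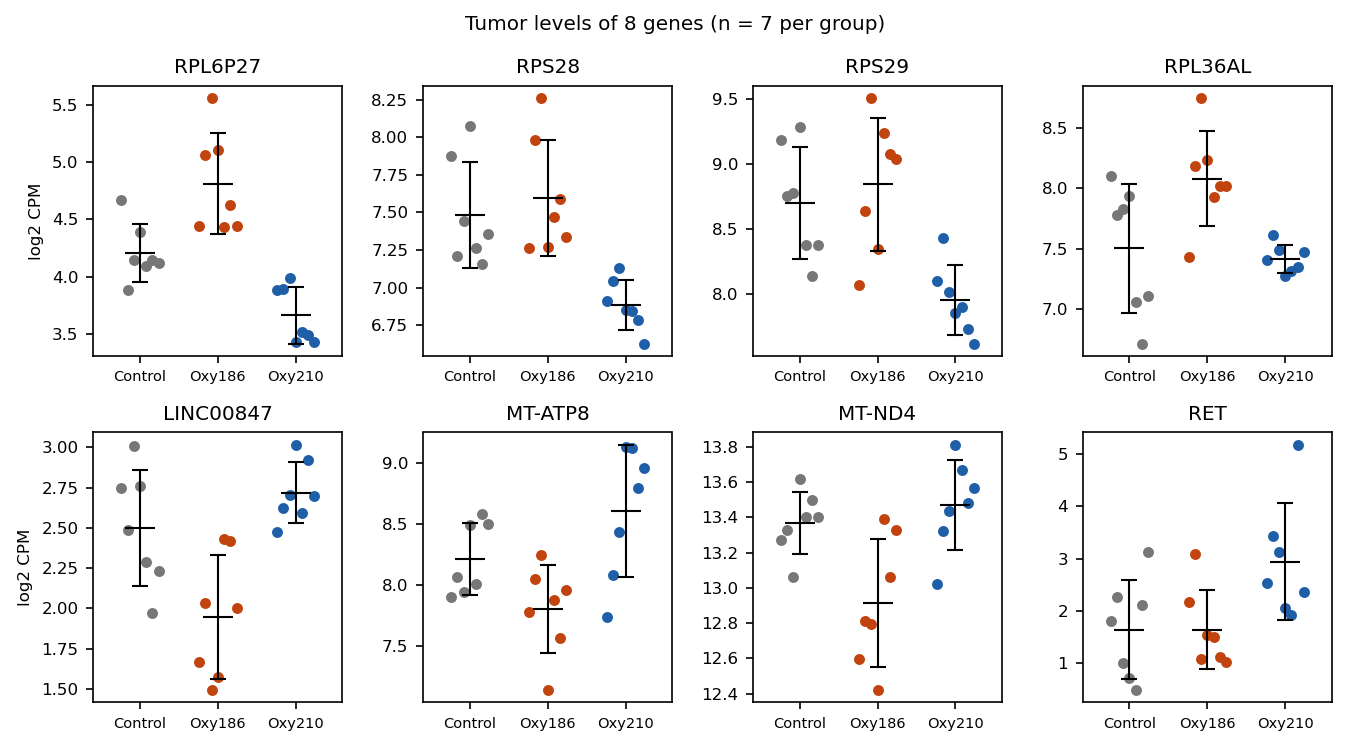
Log2 CPM of 8 genes in each tumor of the control, Oxy186 and Oxy210 groups (n = 7 each), with mean and SD as black bars. RPL6P27, RPS28 and LINC00847 do not overlap between Oxy186 and Oxy210, and the other 5 genes do.

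Among the ribosomal protein genes themselves, RPS28, which encodes a small-subunit protein, had log2 CPM of 7.27, 7.47 and 8.26 (lowest, median and highest) in Oxy186-treated samples and of 6.63, 6.85 and 7.13 in Oxy210-treated samples. The groups did not overlap, and the log2 fold change was 0.75 (95% interval 0.42 to 1.08, adjusted p = 0.709 in edgeR). RPS29, of the same subunit, reached 8.06, 9.04 and 9.51 with Oxy186 and 7.61, 7.90 and 8.43 with Oxy210. Here the groups overlapped, with 5 of the 7 Oxy186-treated tumors above the highest Oxy210-treated one, and the log2 fold change was 0.95 (95% interval 0.53 to 1.37, adjusted p = 0.709 in edgeR). RPL36AL, a paralog of a large-subunit protein gene, had 7.43, 8.02 and 8.75 against 7.28, 7.40 and 7.61. Its log2 fold change was 0.71 (95% interval 0.39 to 1.03, adjusted p = 0.741 in edgeR), and 6 of 7 Oxy186-treated tumors were above all Oxy210-treated ones.

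These genes were then followed as a class, chosen after their values were seen, so no test was made of it. Of 85 cytosolic ribosomal protein genes, 81 had a log2 fold change above 0, beside 48.5% of all genes tested, and the median was 0.34 beside -0.01. An unadjusted p under 0.05 in that direction was found for 40 of them, beside 3.14% of all genes. Of the 14 genes that DESeq2 gave an adjusted p at or under 0.05, 8 belong to this class: RPS28, RPS29, RPL36AL, RPL35, RPL30, RPL38, FAU and RPS20. Leaving out 1 tumor at a time, the class median ran from 0.26 without Oxy186-treated sample r3 to 0.41 without r4, and between 79 and 83 members stayed above 0. Of 81 ribosomal protein pseudogenes, whose counts are uncertain as above, 59 were above 0, with a median of 0.28, and 22 higher and 1 lower had an unadjusted p under 0.05. Of the 4 ribosomal protein genes below 0, RPL17, RPL10 and RPL23A were at -0.35, -0.13 and -0.07, each with an interval that spanned 0.

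Messages of ribosomal proteins share a feature that belongs to the class itself, whatever its fold changes. They begin with a 5′ terminal oligopyrimidine tract, an unbroken run of C and T at the start of transcription through which their translation responds to growth signals. The start sites of 6 members, taken in order of their p and passing over RPL30, are shown as 15 bases before and 15 bases from the RefSeq start in GRCh38.p14, 5′ to 3′ on the gene's strand, with a run of at least 5 C or T within 5 bases of the start in capitals.
RPS28 (chr19:8321481-8321510, plus strand): tccccgaagcacgtgaCTCCTCTCCgccag
RPS29 (chr14:49598696-49598725, minus strand): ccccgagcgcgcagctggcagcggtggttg
RPL36AL (chr14:49620612-49620641, minus strand): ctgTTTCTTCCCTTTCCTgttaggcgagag
RPL35 (chr9:124861943-124861972, minus strand): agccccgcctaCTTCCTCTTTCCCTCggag
RPL38 (chr17:74203663-74203692, plus strand): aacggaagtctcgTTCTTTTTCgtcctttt
FAU (chr11:65122120-65122149, minus strand): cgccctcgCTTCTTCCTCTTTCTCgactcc
All but RPS29 hold such a run within 5 bases of the listed start. This rule is looser than a tract that opens the message, and in RPS28 the run begins just after the start base. Of the 85 genes, 68 matched the RefSeq promoter table. Of these, 59 (86.8%) had the run within 5 bases of a listed start, beside 42.3% of 10639 tested protein-coding genes matched. On the opposite strand the shares were 11.8% and 33.6%. Of 63 matched nuclear genes of oxidative phosphorylation, a class taken up below, 29 (46.0%) had the run on the gene's strand. Whether the run goes with the fold change was not tested. The letters describe the annotated starts and were not measured in these tumors.

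Nuclear genes of mitochondrial energy production moved with the ribosomal ones, and mitochondrially encoded messages the other way. Both groups were also chosen after their values were seen and were not tested. Of 80 nuclear genes of oxidative phosphorylation, 74 had a log2 fold change above 0, with a median of 0.28, and 25 had an unadjusted p under 0.05, all higher with Oxy186. ATP5PO, of the ATP synthase stalk, led them with 4.69, 4.92 and 5.99 log2 CPM (lowest, median and highest) against 4.21, 4.52 and 4.84, a log2 fold change of 0.76 (95% interval 0.33 to 1.18). In 6 of 7 Oxy186-treated tumors it was above all Oxy210-treated ones. NDUFS6, of complex I, had a log2 fold change of 0.65 (95% interval 0.26 to 1.03) and COX7A2, of cytochrome c oxidase, one of 0.60 (95% interval 0.23 to 0.98). Of 76 mitochondrial ribosomal protein genes, 70 were above 0, with a median of 0.19, and 15 had an unadjusted p under 0.05. Over all genes 48.5% were above 0, and 3.14% were higher with an unadjusted p under 0.05. With only Oxy186-treated samples r1-r4, 55 of the 80 and 54 of the 76 were above 0, and with only r5-r7, 73 and 52. With GC and length offsets the counts were 68 and 59.

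The mitochondrial genome itself encodes 13 subunits of the same complexes. All 13 messages had a log2 fold change below 0, with a median of -0.45, and 6 had an unadjusted p under 0.05, beside 0.917% of all genes in that direction. MT-ATP8, an ATP synthase subunit, had 7.14, 7.88 and 8.24 log2 CPM with Oxy186 and 7.74, 8.79 and 9.13 with Oxy210. The groups overlapped, and the log2 fold change was -0.85 (95% interval -1.30 to -0.40, adjusted p = 0.853 in edgeR). Its reading frame shares 22.2% of its length with MT-ATP6 on the same strand, so reads there are uncertain. MT-ND4, of complex I, had 12.42, 12.81 and 13.39 against 13.02, 13.48 and 13.81, a log2 fold change of -0.54 (95% interval -0.90 to -0.17), and MT-ND4L of the same complex was at -0.55 (95% interval -0.90 to -0.20). The smallest differences were those of MT-CO1 and MT-CO3, which encode subunits of cytochrome c oxidase, at -0.11 and -0.05. Without 1 tumor at a time the median of the 13 ran from -0.54 to -0.36.

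As a share of all human gene counts, cytosolic ribosomal protein genes took 8.71% ± 1.62 (SD, n = 7) in Oxy186-treated samples and 7.20% ± 0.34 (SD, n = 7) in Oxy210-treated samples. The control group stood at 8.50% ± 1.51 (SD, n = 7). Mitochondrially encoded genes took 8.59% ± 1.28 (SD, n = 7), 10.1% ± 1.13 (SD, n = 7) and 9.59% ± 0.77 (SD, n = 7) in the same order. Both shares overlapped between the groups. Against the same 7 control tumors, which both comparisons share, the ribosomal protein genes had a median difference in log2 CPM of 0.04 with Oxy186 and of -0.26 with Oxy210, and the mitochondrially encoded messages one of -0.41 and of 0.07.

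**Figure D2:**
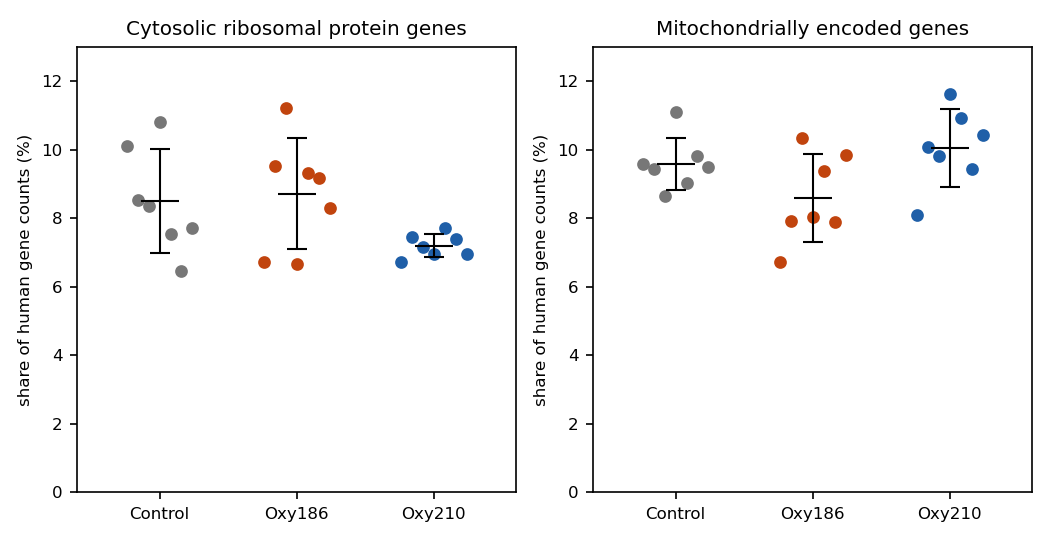
Share of human gene counts, in percent, on cytosolic ribosomal protein genes and on mitochondrially encoded genes in each tumor (n = 7 per group), with mean and SD as black bars. The Oxy210 values for ribosomal protein genes lie close together, from 6.74% to 7.71%, inside the range of the Oxy186-treated tumors, from 6.68% to 11.2%.

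Transcript length moved with these results. With genes ranked in 10 equal bins by transcript length, the median log2 fold change was 0.07 and 0.10 in the 2 bins of the shortest transcripts and went down bin by bin from there to -0.08 in the bin of the longest. Ribosomal protein transcripts had a median length of 785 bases, against 2921 over all genes tested. Other protein-coding genes up to the 90% quantile of their length had a median of 0.07, with 63.0% above 0. The median length of these other genes was 1877 bases, so they are not matched in length to the ribosomal ones. Once each library's trends with GC content and length were removed, an analysis added after the data were seen, the median was 0.23 over the ribosomal protein genes, 0.18 over the nuclear genes of oxidative phosphorylation and -0.58 over the mitochondrially encoded messages. The slope of log2 CPM on transcript length did not differ between the groups beyond the spread between tumors (-0.02 ± 0.08 with Oxy186 and 0.02 ± 0.05 with Oxy210 per doubling, SD, n = 7 each, two-sided exact permutation test, p = 0.249, adjusted p = 0.498 over 4 such tests).

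Among genes lower with Oxy186, the smallest p was that of LINC00847, a long noncoding RNA on chromosome 5 from 180830326 to 180839742. Its log2 CPM was 1.49, 2.001 and 2.43 with Oxy186 and 2.48, 2.698 and 3.02 with Oxy210, so the groups did not overlap. The log2 fold change was -0.76 (95% interval -1.15 to -0.36, adjusted p = 0.853 in edgeR), and 41.9% of its exon length lies opposite another gene, where reads are uncertain because no strand setting is given in the sources used here. RET, a receptor tyrosine kinase gene that is an oncogene in some lung cancers, had the lowest fitted log2 fold change of all genes tested, next to the mitochondrial MT-TR at -1.61. It had 1.02, 1.499 and 3.08 log2 CPM with Oxy186 and 1.92, 2.53 and 5.18 with Oxy210, overlapping groups in which 1 Oxy210-treated tumor, r6, stood highest. The log2 fold change was -1.61 with a wide interval of -2.69 to -0.54, and -0.87 without r6. NSRP1, a splicing regulator, had a narrower one, at -0.43 (95% interval -0.70 to -0.15). The pseudogene MORF4L1P1, 99.3% identical to MORF4L1, was at -0.49 (95% interval -0.82 to -0.16).

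The pathway lists covered HH, WNT and TGF-β signaling and EMT, and further sterol, stress and growth programs that are background for the compounds. Over 13 such lists, 207 genes were tested and 5 had an unadjusted p under 0.05, or 2.42%, which is under the background of 4.06%. For 177 of the 207 the interval lay within a 2-fold change. The 5 were WNT4, EBP, INSIG1, ATF4 and LDHA, all higher with Oxy186.

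**Figure D3:**
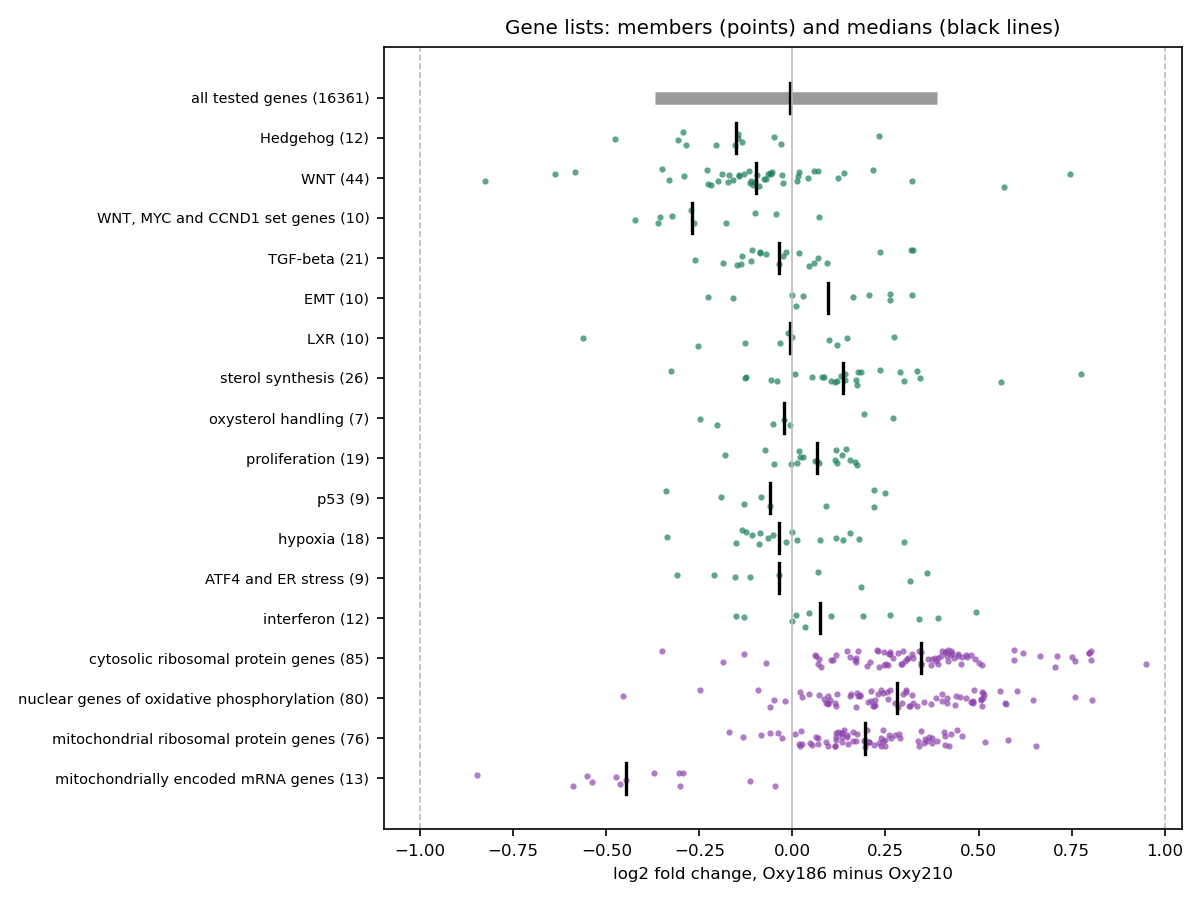
Log2 fold change, Oxy186 minus Oxy210, of each tested member of 13 pathway lists (green points) and of 4 classes chosen after their values were seen (purple points), with medians as black lines and the number tested in brackets. The gray bar spans the 5th to the 95th percentile of all 16361 genes, and dashed lines mark a 2-fold change. Pathway medians lie between -0.27 and 0.14, ribosomal and nuclear mitochondrial classes to the right and mitochondrially encoded messages to the left.

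In the HH list, 12 of 16 genes were expressed enough to be tested, and none had an unadjusted p under 0.05. The median was -0.15, with 11 of 12 below 0 and 1 above, where 48.5% of all genes were above 0. With GC offsets 3 of the 12 were above 0, with only Oxy186-treated samples r1-r4 1, and with only r5-r7 6. The ligand SHH was at -0.16 (95% interval -0.60 to 0.29) and its receptor PTCH1 at -0.14 (95% interval -0.46 to 0.19). Of the co-receptors that help bind the ligand, BOC was at -0.48 (95% interval -1.18 to 0.22) and CDON at -0.28 (95% interval -0.68 to 0.11). The signal transducer SMO was at -0.29 and GPR161, a receptor that restrains the pathway, at -0.20 (95% interval -0.50 to 0.09). HHIP, which sequesters the ligand, was the only member above 0, at 0.23. The transcription factor GLI1, also a readout of pathway activity, had 1.92, 2.596 and 3.18 log2 CPM with Oxy186 and 1.89, 2.80 and 3.57 with Oxy210, nearly the same range. Its log2 fold change was -0.31 (95% interval -0.89 to 0.27), and that of GLI2 was -0.05 (95% interval -0.45 to 0.35). DHH, IHH, GAS1 and GLI3 were too low to be tested, with at most 37 counts in a library.

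Of the 56 WNT genes, 44 were tested, 12 of them above 0, beside 48.5% of all genes, with a median of -0.10. WNT4, a ligand, was the only one with an unadjusted p under 0.05, at 0.74 (95% interval 0.13 to 1.36, adjusted p = 1.00 in edgeR), from a low level of 0.19, 0.89 and 1.24 log2 CPM with Oxy186 against -0.59, 0.08 and 0.89. The groups overlapped, with 3 Oxy186-treated tumors above all Oxy210-treated ones. The 10 receptors and co-receptors were at -0.20 to 0.14, and each interval lay within a 2-fold change. The central transducer CTNNB1, which encodes β-catenin, was nearly level at -0.03 (95% interval -0.26 to 0.21), as was GSK3B, the kinase that marks it for destruction, at -0.06 (95% interval -0.28 to 0.17). Among feedback targets, AXIN2 was at -0.06 (95% interval -0.55 to 0.43), RNF43 at 0.12 and NKD1 at -0.58, while BAMBI was at 0.32 (95% interval -0.01 to 0.65). The growth genes MYC and CCND1 were at 0.06 (95% interval -0.38 to 0.49) and -0.10 (95% interval -0.47 to 0.26). Of the 44 genes, 15 were above 0 with only Oxy186-treated samples r1-r4 and 24 with only r5-r7, at medians of -0.15 and 0.05.

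The 10 genes that the study took from its WNT, MYC and CCND1 gene sets, and picked after comparing Oxy186 with control in these samples, were 9 times below 0, with a median of -0.27. In limma voom all 10 were below 0, with a median of -0.56, and with voom quality weights the median was -0.75. None had an unadjusted p under 0.05, and the intervals were wide, so that 4 of 10 lay within a 2-fold change. SLC25A22, a mitochondrial carrier gene, was at -0.36 (95% interval -1.25 to 0.53). NBL1, a secreted antagonist of bone morphogenetic proteins, had 1.63, 3.07 and 4.90 log2 CPM with Oxy186 and 2.92, 4.04 and 4.69 with Oxy210, a log2 fold change of -0.42 (95% interval -1.39 to 0.55). RASSF7 had 4.64, 5.85 and 7.78 with Oxy186 against 6.11, 6.40 and 7.00, a log2 fold change of 0.07 (95% interval -0.76 to 0.90), whose sign was not stable with all 7 tumors (-0.32 in limma voom and -0.48 with voom quality weights). In both, the Oxy186-treated tumors reached beyond the Oxy210-treated ones on either side. Against Oxy210, the list's median was -1.44 for Oxy186-treated samples r1-r4, which the study kept after its principal component plot, and 0.51 for r5-r7, which it left out. Since those samples were chosen by their expression, these values are a description. The list's median exon GC content was 66.6%, against 47.6% over all genes tested. Over the highest of 10 equal bins of genes by GC content, the same fits gave medians of -0.80 and 0.49. The part of GC content in the list's subset values was not tested.

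**Figure D4:**
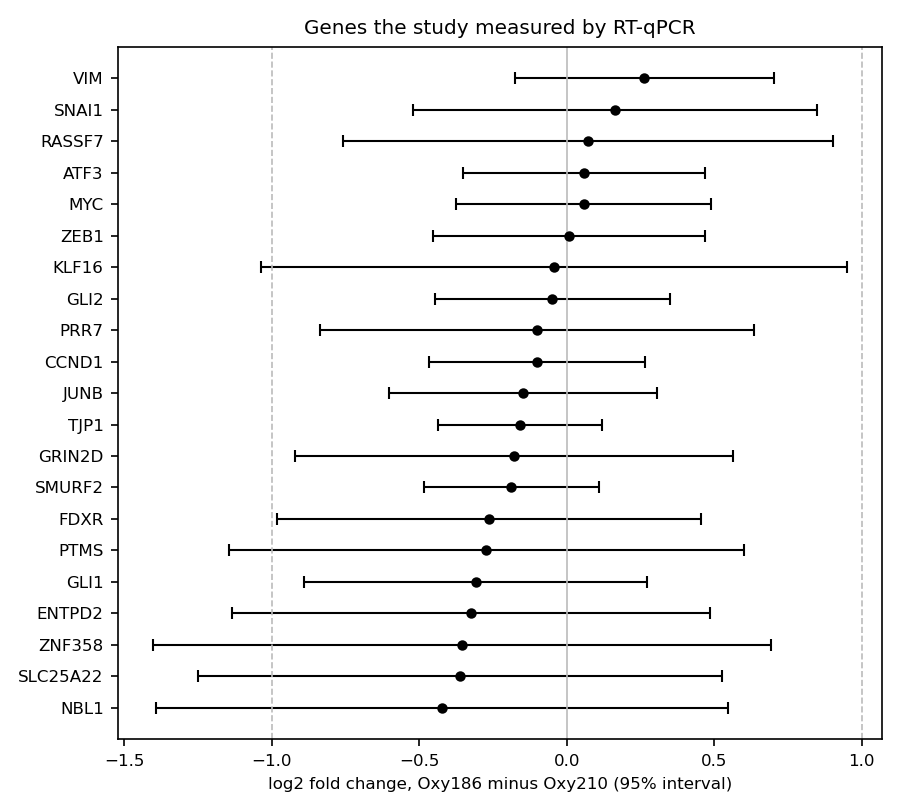
Log2 fold change, Oxy186 minus Oxy210, with 95% interval for 21 genes chosen for RT-qPCR in xenografts, here from the sequencing counts (n = 7 tumors per group). Every interval spans 0, and 15 of 21 lie within the dashed lines of a 2-fold change.

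TGF-β genes had a median of -0.04, with all 21 intervals within a 2-fold change. The receptors TGFBR1 and TGFBR2 were at -0.14 and -0.03. Of the targets, JUNB was at -0.15 (95% interval -0.60 to 0.31), ATF3 at 0.06 (95% interval -0.35 to 0.47) and SMURF2 at -0.19 (95% interval -0.48 to 0.11), while CCN2, a matrix-signaling target, was at 0.33 (95% interval -0.08 to 0.73). The co-receptor gene TGFBR3 was at 0.32 (95% interval -0.15 to 0.79). The 10 EMT genes tested had a median of 0.10. VIM, the mesenchymal filament gene, was at 0.26 (95% interval -0.18 to 0.70) and the junction genes TJP1 and OCLN at -0.16 (95% interval -0.44 to 0.12) and -0.23 (95% interval -0.57 to 0.12). The transcription factors SNAI1 and ZEB1 were at 0.16 and 0.01.

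Of 26 genes of cholesterol synthesis and its control, 21 were above 0, beside 48.5% of all genes, with a median of 0.14, and 2 had an unadjusted p under 0.05, beside 4.06%. The list was not tested, and 18 were above 0 with voom quality weights and 15 with r1-r4 alone. EBP, which encodes a sterol isomerase late in the pathway, had 4.22, 5.12 and 5.66 log2 CPM with Oxy186 and 3.44, 4.13 and 4.81 with Oxy210, with 5 Oxy186-treated tumors above all Oxy210-treated ones. Its log2 fold change was 0.77 (95% interval 0.26 to 1.29, adjusted p = 1.00 in edgeR). INSIG1, the sensor that holds back the pathway and is itself one of its targets, had 4.60, 5.50 and 6.08 against 4.35, 5.10 and 5.33, a log2 fold change of 0.56 (95% interval 0.12 to 1.00). The LXR genes had a median of -0.01. The cholesterol exporter ABCA1 was at -0.56 with a wide interval (-1.47 to 0.35), ABCG1 near 0 (95% interval -0.45 to 0.44), the desaturase SCD at 0.27 (95% interval -0.04 to 0.59) and the phospholipid enzyme LPCAT3 at -0.25 (95% interval -0.61 to 0.10). Of 11 genes that make or bind oxysterols 7 were tested, with a median of -0.02 and every interval within a 2-fold change. The transport genes OSBPL2 and NPC2 were at 0.19 (95% interval -0.05 to 0.43) and 0.27 (95% interval -0.07 to 0.61).

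All 19 proliferation genes had intervals within a 2-fold change, with a median of 0.07, and CCNB1, which drives entry into mitosis, was at 0.17 (95% interval -0.21 to 0.56). Hypoxia genes had a median of -0.04, with LDHA, a glycolytic enzyme, at 0.30 (95% interval 0.02 to 0.58). The stress genes under ATF4 had a median of -0.04, with ATF4 itself at 0.32 (95% interval 0.05 to 0.58) and its target TRIB3 at 0.36 (95% interval -0.05 to 0.77). The p53 targets had a median of -0.06, and CDKN1A, which arrests the cell cycle, was at -0.34 (95% interval -0.80 to 0.12). Interferon-stimulated genes had a median of 0.07 (0.20 in limma voom), and 4 of 12 intervals lay within a 2-fold change, beside 86.8% of all genes.

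Of the 15 markers of A549 cells, 14 were above 0, beside 48.5% of all genes, with a median of 0.19, and 2 had an unadjusted p under 0.05, beside 4.06%. The 5 epithelial ones were all above 0 (4 of 5 with GC offsets or with voom quality weights), with a median of 0.32, and held both. These simple epithelial keratins, KRT19 and KRT18, were at 0.56 (95% interval 0.13 to 0.99) and 0.45 (95% interval 0.10 to 0.80). KRT14, an epidermal keratin near the detection limit, was at 1.48 (95% interval 0.06 to 2.90), with 3 Oxy186-treated tumors above and 2 below all Oxy210-treated ones. It was highest in Oxy186-treated sample r7, at 2.96 log2 CPM, without which the log2 fold change was 0.36, and limma voom gave 0.49 with all tumors.

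The groups differed in their spread. The distance of a tumor from its own group mean over the log2 CPM of all tested genes was 64.7 ± 9.19 (SD, n = 7) in Oxy186-treated samples and 45.7 ± 4.73 (SD, n = 7) in Oxy210-treated samples (two-sided exact permutation test, p = 0.00117, adjusted p = 0.00466 over 4 tests, the smallest possible p being 0.000583). Each distance is to the mean of its own group and was not recomputed for each arrangement of the labels. Distances within a group are therefore not independent, and every p given for this measure, here and below, may be too small. The SD between tumors was larger with Oxy186 for 78.0% of genes, with a median of 0.40 against 0.29, and 0.31 in the control group. On the first principal component, which held 39.9% of the variance, the mean scores were 9.25 ± 50.9 (SD, n = 7) and -9.25 ± 20.8 (SD, n = 7), and the difference was within the spread of the tumors (p = 0.383 in a two-sided exact permutation test, adjusted p = 0.510).

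**Figure D5:**
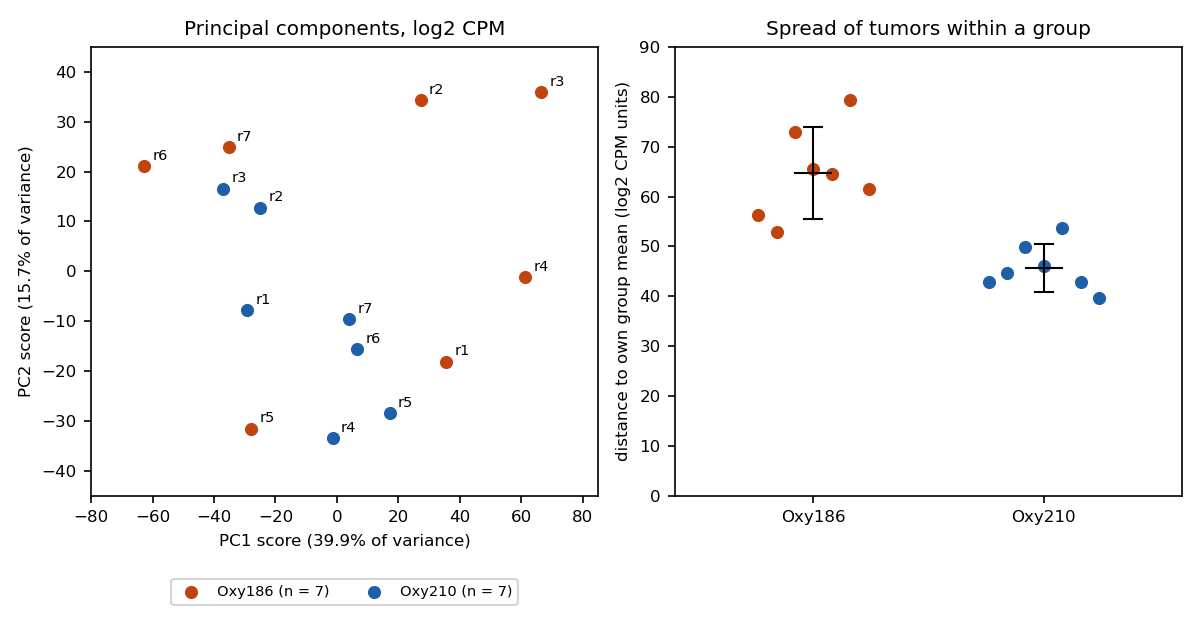
Left, scores of the 14 tumors on the first and second principal components of log2 CPM, labeled by replicate; right, distance of each tumor from its own group mean in log2 CPM units, with mean and SD as black bars (n = 7 each). Oxy186-treated samples lie at both ends of the first component, from -62.8 to 66.4, and Oxy210-treated samples between -37.0 and 17.2.

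Oxy186-treated samples r1-r4 scored between 27.3 and 66.4, above every Oxy210-treated tumor, and r5, r6 and r7 scored -27.9, -62.8 and -35.2. The distance within a group does not rest on 1 tumor, since leaving out each in turn gave differences from 14.9 to 21.3 with p between 0.000583 and 0.00408 (two-sided exact permutation test). A GC slope was fitted to each tumor, as log2 CPM gained per 10 percentage points of exon GC content. Among the Oxy186-treated samples it ran in the opposite order to the component, from -0.45 in r3 to 0.55 in r6, and the Oxy210-treated samples showed nearly the same inverse order, from -0.27 in r5 to 0.33 in r3. Its mean did not differ between the groups beyond the spread between tumors (-0.04 ± 0.37 and 0.04 ± 0.20, SD, n = 7 each, two-sided exact permutation test, p = 0.645, adjusted p = 0.645), but its SD was larger with Oxy186. In the highest of 10 equal bins of genes by GC content the median SD between tumors was 0.83 with Oxy186 and 0.42 with Oxy210, and in bin 5 it was 0.33 and 0.24. With the GC trend removed from every library the distances were 53.3 and 41.6, and the difference of 11.8 had the smallest p the test allows (two-sided exact permutation test, p = 0.000583).

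The ratio of the SD with Oxy186 to that with Oxy210 was also taken for single genes. Among the better expressed genes, RPL10, a large-subunit ribosomal protein gene on the X chromosome, had the largest ratio of SDs, 11.4, with 9.51, 10.79 and 11.44 log2 CPM in Oxy186-treated samples and 10.92, 10.95 and 11.09 in Oxy210-treated samples. Its exons lie 50.5% opposite other genes. FOXK1, a forkhead transcription factor gene, had a ratio of 10.3, and BABAM2, of a DNA repair complex, one of 8.75. For RPL10, FOXK1 and BABAM2 the SDs with Oxy186 were 0.72, 0.66 and 0.45. Those with Oxy210 were 0.063, 0.064 and 0.052, below control SDs of 0.39, 0.34 and 0.28. These large ratios therefore rest in part on small SDs in the Oxy210 group. At the other end, RIC1 had a ratio of 0.155, with 4.90, 4.97 and 5.07 log2 CPM with Oxy186 and 4.66, 5.01 and 5.73 with Oxy210, and CWC25, a splicing factor gene, one of 0.267. TCN1, which encodes a vitamin B12 carrier, had 6.94, 7.33 and 7.63 against 5.80, 7.00 and 8.39, with a ratio of 0.228. These genes were taken from the ends of the ratio, so their values are a description.

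The Oxy186-treated tumors r1-r4 and r5-r7 were separated by their expression, so p-values from either subset are not valid tests, and the counts only describe the libraries. With r1-r4 against the 7 Oxy210-treated tumors, 716 of 16908 genes were called lower (4.23%) and 33 higher (0.195%), and 457 of the 716 belong to the bin with the highest GC content. With r5-r7, 17 of 17401 were called higher (0.0977%) and 0 lower (0%). An unadjusted p under 0.05 in edgeR was found for 4711 genes with r1-r4 (27.9%) and for 2586 with r5-r7 (14.9%). The median over the bin with the highest GC content was -0.80 in the former fit and 0.49 in the latter. Both fits use the same 7 Oxy210-treated tumors, so a shared direction is no support for either. For the ribosomal protein genes the medians were 0.29 and 0.37, and for the mitochondrially encoded messages -0.77 and -0.12, with 1 and 4 of 13 above 0.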

How the data were processed

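RNA-seq was done on xenograft tumors, 7 per group. The authors trimmed reads with Trimmomatic 0.39, aligned them with STAR 2.7.6a to a combined human and mouse genome (GRCh38.p13 and GRCm39, per the submitters' processing notes) and deposited raw counts of uniquely mapped reads on 60651 human genes, made with featureCounts (Subread 2.0.1). The strand setting is not given in the sources used here. The deposited log2 CPM table was not used here.

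Counts of the 14 libraries were filtered with filterByExpr, normalized by TMM and tested with edgeR 4.0.16 (R 4.3.3) with calls at a fold change past 2 and a Benjamini-Hochberg adjusted p of at most 0.05. The 95% interval was the log2 fold change plus or minus the t quantile times its standard error. Log2 CPM used a prior count of 2, on factors from all 21 libraries. Per-library traits were compared with exact permutation tests, permuting the labels of the measured values. Alternatives included limma voom (limma 3.58.1), DESeq2 1.42.0, other normalizations and filters, GC offsets (splines, 4 degrees of freedom), all 21 libraries, a replicate block, r1-r4 or r5-r7 alone, and leaving out each library. Exon GC content, lengths and positions came from GENCODE 44 (GRCh38) and covered 99.8% of tested genes. Pseudogenes were aligned with blastn.

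Named genes are the 2 with the smallest p of each list, those chosen for RT-qPCR in xenografts, the 8 with the smallest p in each direction (mean log2 CPM of at least 1) and the 3 at each end of the SD ratio (mean log2 CPM of at least 5); other list members are named to show roles. Members and lists were chosen with earlier results of these data known. Some genes that the rule covers are not reported here. Labels give no more than separate samples of a group, 1 tumor each, and the most similar pair in each group differed well beyond counting noise (chi-square over degrees of freedom, 12.1 and 25.4).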

Additional observations from a re-analysis of the deposited data

Results flagged for a closer look

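Single tumors stood far from the other 6 of their group in 7 of 222 groups of values examined, by the size of their gap relative to the group's range, where chance alone gives about 1 in 20, or 11.1. IFI27, an interferon-stimulated gene, was at 4.99 log2 CPM in Oxy186-treated sample r5, where the other 6 ran from 1.24 to 2.34, and at 4.30 in Oxy210-treated sample r4, where the others ran from 1.23 to 2.17. Without Oxy186-treated sample r5 its fold change turned negative, and it was not called in either case. KLF16 was at 1.92 in Oxy210-treated sample r5, below 2.80 to 3.21 in the others. CDON was at 2.53 in Oxy210-treated sample r3, below 2.95 to 3.24 in the others. OSBPL2, an oxysterol-binding protein gene, was at 6.05 in Oxy186-treated sample r6, above 5.64 to 5.79. In the control group, which enters no test here, GPR161 was at 5.03 in r6 and INSIG1 at 5.02 in r3.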

How the results depend on the processing

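The count of 0 called genes held in DESeq2, limma voom, RLE normalization, scaling by library size, the count minimum of 10, the replicate block and all 14 fits without 1 tumor (0 to 0). It became 1, always RPL6P27, with no filter, with all 21 libraries in one fit, with voom quality weights, with GC offsets, with the replicate block and GC offsets together, and with GC and length offsets, which were added after the data were seen; in each of these the count at an adjusted p at or under 0.05 was also 1. Over the settings named so far, fits without 1 tumor apart, its adjusted p ran from 0.0132 to 0.373, and 0.570 was the highest without 1 tumor; DESeq2 gave none for it. DESeq2 gave 14 genes at an adjusted p at or under 0.05 (13 higher, 1 lower). With r1-r4 alone 749 genes were called and 1881 passed on adjusted p without the fold, and with r5-r7 alone 17 and 29. These subsets were separated by expression, so their p-values are not valid tests. RASSF7 turned to -1.18 with r1-r4 and was also below 0 in limma voom, with quality weights, with the replicate block (-0.33) and without Oxy186-treated sample r5 or r6. The count of genes with the interval within a 2-fold change ran from 13447 to 14399 without 1 tumor. The replicate block called 0 genes; same-numbered tumors did not deviate together (correlations from -0.33 to 0.12, over 0.1 in 1 of 7, and none best matched by its own number), so the numbers were not taken to pair them. Of 1956 comparisons over 70 named genes, 83 changed sign, in 27 genes, none of them among the 16 named for a small p. Leaving out 1 tumor, the difference in mean PC1 score ran from 5.62 to 33.3 (p from 0.105 to 0.788) and that in GC slope from -0.17 to -0.01. A depth of 13787493 to 15776682 counts and 7 tumors a group limit low genes, whose intervals are widest.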
